A study of Mus musculus with 2 samples.

Results

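The 10 genes described here hold proliferating cells in the cycle or take them out of it: 4 inhibitors of cyclin-dependent kinases (Cdkn1b, Cdkn1c, Cdkn2c and Cdkn2d), the 3 pocket proteins (Rb1, Rbl1 and Rbl2) and the 3 D cyclins (Ccnd1, Ccnd2 and Ccnd3). They were chosen by symbol, and all 10 were found among the 32285 genes of the count table. They were followed in single cells sorted for tdTomato from mouse embryos that had been decapitated and eviscerated at embryonic day 14 (E14). All cells carried Myf5-Cre and the Rosa26 tdTomato reporter, which marks every descendant of a cell in which the Myf5 promoter has been active, so the sort holds muscle cells together with many other lineages. One library came from SRSF2f/f/Myf5-Cre/tdT embryos (MKO/tdT), in which Cre deletes the floxed splicing factor gene Srsf2 on both alleles, and 1 from SRSF2f/w/Myf5-Cre/tdT embryos (Het/tdT), which keep a wild-type allele. With 1 library per genotype there was no replicate and no test, and the number of embryos behind each library is not given in the sources used here.

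A D cyclin activates CDK4 and CDK6, which phosphorylate the pocket proteins and so free E2F factors to switch on the genes of DNA replication. The Cdkn1 proteins (p27 from Cdkn1b and p57 from Cdkn1c) bind whole cyclin-kinase complexes, whereas the Cdkn2 proteins (p18 from Cdkn2c and p19 from Cdkn2d) bind CDK4 and CDK6 alone. When a myoblast differentiates it switches on the transcription factor myogenin (Myog) and leaves the cycle for good, and Rb1, p57 and p21 (from Cdkn1a) are the regulators best known for that exit. In dividing cells Rbl1 (p107) is itself an E2F target, while Rbl2 (p130) is the pocket protein usually linked with quiescence.

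Srsf2 went against the labels of the libraries. Its level in muscle cells was 253 CPM (UMIs of a gene per 1000000 UMIs of the same cells) in the library labelled MKO/tdT and 178 CPM in the library labelled Het/tdT, and it was higher in the library labelled MKO/tdT in 10 of 10 cell types. The headings of the study's quality control also name these libraries inconsistently. For this reason each library is called by its label, and every direction drawn between them turns around if the labels are exchanged. Comparisons between cells of the same library do not depend on the labels.

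After quality filters 12523 cells remained in the library labelled MKO/tdT, at a median of 10751 UMIs, and 10345 in the library labelled Het/tdT, at a median of 9480.0 UMIs. Cell types were set by UMI limits on marker genes, none of them a member. Muscle cells had at least 3 UMIs over at least 2 of Pax7, Myf5, Myod1, Myog, Cdh15 and Chrna1. There were 2087 muscle cells in the library labelled MKO/tdT and 100 in the library labelled Het/tdT, so that 95.4% of all muscle cells came from the first. Muscle cells were 16.7% and 0.967% of the cells kept. By Myog the first held 877 muscle cells with 0 UMIs, 379 with 1 to 4 and 831 with at least 5. The second held 43, 11 and 46. Pax7, the marker of progenitors, read 166, 124 and 20.3 CPM over these bins in the library labelled MKO/tdT. Pax7 is itself in the muscle rule. A cell without Myog needs more UMIs of the other markers, so this order is partly set by the rule. Embryonic myosin (Myh3), which is not in the rule, read 1.22, 14.7 and 223 CPM. By that gene the bins run from cells with little early myosin to cells with more of it. The other cells given a type carried markers of chondrocytes, fibroblasts and mesenchyme, neurons, endothelium, Schwann cells, pericytes, osteoblasts, immune cells, epithelium or erythroid cells. Of the 22868 kept cells of both libraries, 61.6% were given a type, muscle included. Another 13.6% met the limits of several types and 24.8% met those of none, and these cells were left out of the types. The libraries shared 74 barcode sequences. After the filters 100 kept cells, 8 of them muscle cells, carried a sequence still present in both libraries. Leaving out every kept cell with any of the 74 sequences changed none of the counts of members past 2-fold in the 4 main comparisons.

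The RefSeq promoter table (GRCm38.p6, 250 bases before to 50 after each start site) held 6 of the 10 members, Cdkn1b, Cdkn2c, Cdkn2d, Rbl1, Rbl2 and Ccnd3, and not Cdkn1c, Rb1, Ccnd1 or Ccnd2. The promoters of the paralogs Rbl1 and Rbl2 are shown because these genes parted company in cycling cells. The first of the 2 promoters of Cdkn2c is shown because Cdkn2c moved with Rbl1. They were searched on both strands for the E2F letters TTTCGCGC and TTTGGCGC and for TTTGAA, the cell cycle homology region bound by the MuvB complex. Capitals mark the matches.
Rbl1, chr2:157204485-157204784, minus strand: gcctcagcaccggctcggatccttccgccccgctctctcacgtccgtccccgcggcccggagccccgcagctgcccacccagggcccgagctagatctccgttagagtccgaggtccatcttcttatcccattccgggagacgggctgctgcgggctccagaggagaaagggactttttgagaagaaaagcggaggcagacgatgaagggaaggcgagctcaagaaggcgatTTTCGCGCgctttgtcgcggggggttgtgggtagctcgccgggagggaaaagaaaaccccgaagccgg
Rbl2, chr8:91069807-91070106, plus strand: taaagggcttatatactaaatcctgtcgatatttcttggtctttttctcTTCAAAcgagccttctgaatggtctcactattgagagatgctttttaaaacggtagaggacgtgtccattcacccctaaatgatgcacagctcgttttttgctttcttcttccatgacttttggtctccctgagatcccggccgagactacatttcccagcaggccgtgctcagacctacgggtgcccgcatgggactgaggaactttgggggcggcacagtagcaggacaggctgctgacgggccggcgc
Cdkn2c, chr4:109666707-109667006, minus strand: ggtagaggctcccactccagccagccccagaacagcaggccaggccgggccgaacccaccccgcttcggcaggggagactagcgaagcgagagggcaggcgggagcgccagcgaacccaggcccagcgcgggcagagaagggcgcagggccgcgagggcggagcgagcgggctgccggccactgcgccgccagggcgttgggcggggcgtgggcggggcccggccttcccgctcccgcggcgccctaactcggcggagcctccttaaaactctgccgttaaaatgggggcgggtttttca
The Rbl1 match lay 18 bases before the start site. Of the 8 promoters of members only this 1 held an E2F match, against 0.813% of all 32851 promoters of the table. The Rbl2 promoter held TTTGAA on its other strand, as did 17.9% of all promoters on either strand, and neither of the 2 Cdkn2c promoters held any of the 3 words. A match of letters is a description and not a bound site.

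Muscle cells differed from the other types most in Cdkn1c, Rb1 and the D cyclins. Cdkn1c was the most abundant transcript of all in muscle cells with at least 5 Myog UMIs, at 1.25% of their UMIs in the library labelled MKO/tdT and 1.07% in the library labelled Het/tdT. Over all muscle cells it reached 8946 CPM and 7654 CPM, followed in either library by chondrocytes (4704 and 4683 CPM), fibroblasts (3538 and 3101 CPM) and osteoblasts (1583 and 1451 CPM), and none of the intervals of these 4 types overlapped. The lowest of the 10 types were immune cells, at 267 and 139.5 CPM. Erythroid cells, which should hold little of it, read 176 and 99.6 CPM, and levels of that size are not read as expression.

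Rb1 was also highest in muscle cells, at 85.1 CPM in the library labelled MKO/tdT and 92.5 CPM in the library labelled Het/tdT. Neurons came next in the first (45.7 CPM) and Schwann cells in the second (57.3 CPM), and fibroblasts (10.9 and 11.5 CPM) and chondrocytes (10.1 and 14.5 CPM) were among the lowest. Muscle cells with 0 Myog UMIs, at 12.7 and 11.6 CPM, read close to fibroblasts and chondrocytes. Of all Rb1 UMIs in the library labelled MKO/tdT, 54.8% were in muscle cells. These were 16.7% of its cells and, being deeper, held 31244465 of its 151555303 UMIs. Rb1 spans chr14:73183673-73325822 on the minus strand of GRCm38. Its 1 overlapping counted gene on the same strand, Gm17233, had 30 UMIs there against 4849 for Rb1.

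The D cyclins were arranged the other way around in muscle cells than in their neighbours. Ccnd3 was highest in muscle cells, at 223 and 224 CPM, ahead of fibroblasts at 169 and 142 CPM. Ccnd2 was lowest in muscle cells, at 83.2 and 61.7 CPM, with an interval that overlapped that of neurons, against 589 and 519 CPM in chondrocytes. Ccnd1 was highest in neurons, at 388 and 373 CPM, and muscle cells ranked 9 of 10 at 33.4 and 25.9 CPM, where its interval overlapped that of epithelium in either library and that of immune cells in the library labelled MKO/tdT. Cdkn2d was highest in neurons, at 86.1 and 96.0 CPM, with intervals clear of those of osteoblasts, the next type (54.7 and 45.5 CPM). The remaining members ordered the types less sharply. Cdkn1b was highest in neurons and Rbl2 in Schwann cells, and for Cdkn1b 9 of the 9 neighbouring pairs of types in the library labelled MKO/tdT had overlapping intervals. Cdkn2c was low everywhere, between 0.557 and 6.78 CPM in that library.

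**Figure D1:**
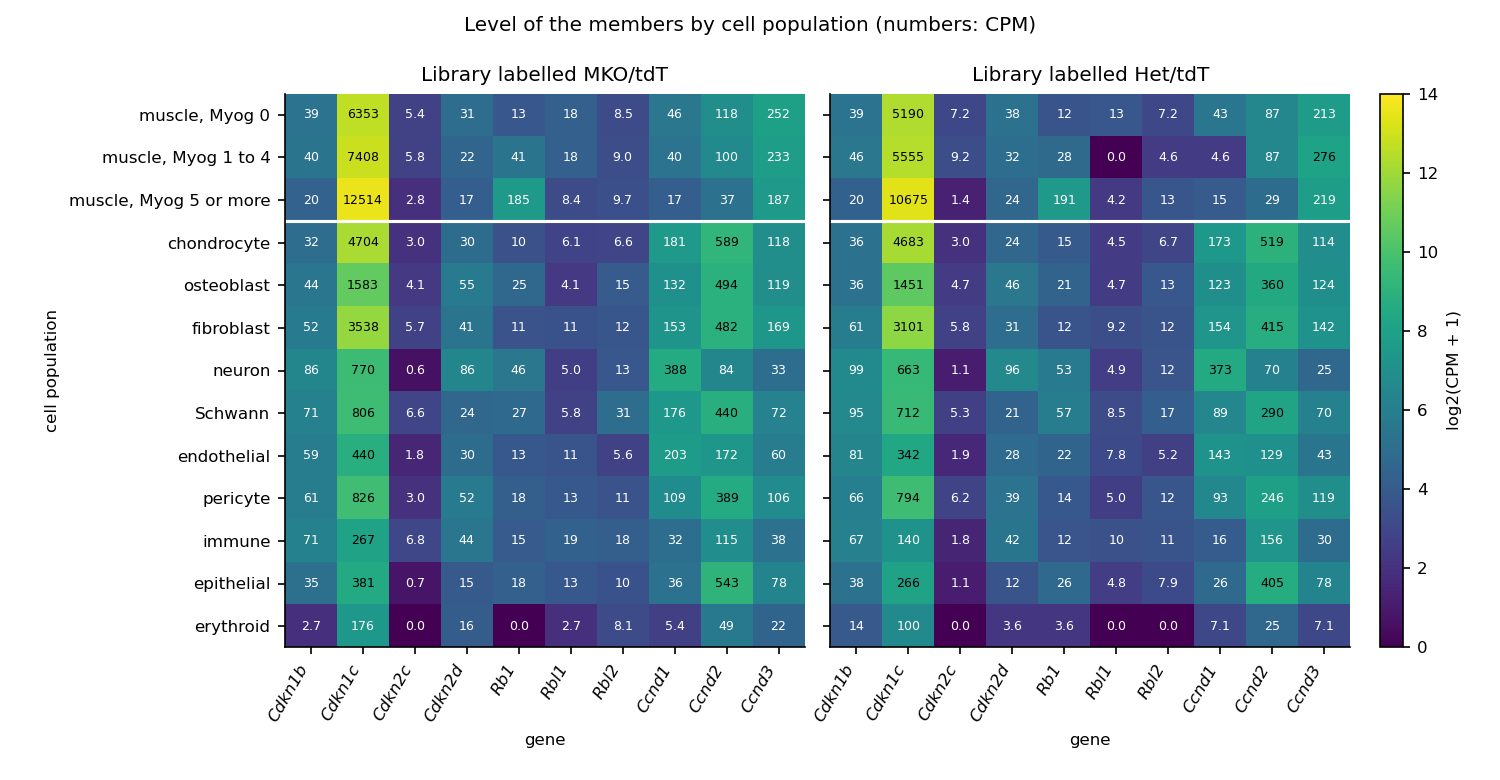
Level of each member in CPM (number in the cell; colour on a log2 scale) in 13 cell populations of the library labelled MKO/tdT (left) and of the library labelled Het/tdT (right), with muscle cells split by Myog above the white line. Cdkn1c rises to 12514 and 10675 CPM and Rb1 to 185 and 191 CPM in muscle cells with at least 5 Myog UMIs, and Ccnd1 and Ccnd2 are lower in muscle cells than in most other types.

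Against all other named cells together, 4 of 10 members differed at least 2-fold in the library labelled MKO/tdT. Higher were Rb1, by a log2 ratio of 2.65 (95% interval 2.54 to 2.76), and Cdkn1c, by 1.45 (1.44 to 1.46). Lower were Ccnd1 (-2.36, -2.45 to -2.27) and Ccnd2 (-2.48, -2.54 to -2.43). Among all genes with at least 20 UMIs over both groups, 5.76% were at least 2-fold higher in muscle cells and 34.8% at least 2-fold lower, so the lower members do not stand out by number. In the library labelled Het/tdT the same 4 genes passed with Ccnd3 (1.38, 1.22 to 1.53) beside them, against 7.96% and 28.6% of all genes. All intervals cover counting error only. The median log2 ratio of all genes was -0.43 in the first library, and relative to it Ccnd3 and Rbl1 would also pass 2-fold there, at 1.23 and 1.14.

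Within muscle cells, from Myog 0 to Myog 5 or more, Rb1 had by far the largest change of the members. It read 12.7 CPM at Myog 0, 40.6 at 1 to 4 and 185 at 5 or more in the library labelled MKO/tdT, and 11.6, 27.6 and 191 CPM in the library labelled Het/tdT. The outer bins lay far apart in either library, and the ratio between them was 14.6-fold (log2 3.87, 3.64 to 4.10) and 16.4-fold (log2 4.04, 3.02 to 5.28). After each cell was thinned to 4000 UMIs, a UMI of Rb1 was found in 5.6%, 15.2% and 49.3% of the cells in the 3 bins of the library labelled MKO/tdT, and without thinning in 16.4%, 37.5% and 86.5%. Erythroid cells gave 0 of 30, which leaves an upper limit of 11.6%. Median depth in these bins lay between 13512 and 15227 UMIs.

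The other pocket proteins did not follow it. Rbl1 read 18.4, 18.5 and 8.42 CPM over the bins of the library labelled MKO/tdT, a log2 ratio of -1.13 (-1.47 to -0.79) between the outer bins. The library labelled Het/tdT gave only 9, 0 and 3 UMIs of Rbl1, too few for a ratio. Rbl2 read 8.46, 9.0 and 9.65 CPM, and its log2 ratio of 0.19 (-0.20 to 0.58) held no difference beyond counting error. The make-up of the pocket protein UMIs turned over. Rb1 went from 32.2% (28.2% to 36.4%) of them at Myog 0 to 91.1% (89.9% to 92.2%) at Myog 5 or more, and Rbl1 went from 46.4% to 4.13%. The library labelled Het/tdT showed 36.4% and 91.9% for Rb1, the first of these on 22 UMIs. Each UMI is the tag of 1 molecule's 3 prime end, so these shares do not depend on transcript length, although capture may differ between genes.

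Among the inhibitors Cdkn1c was the member that stood higher with Myog. It read 6353, 7408 and 12514 CPM in the library labelled MKO/tdT and 5190.3, 5555 and 10675 CPM in the library labelled Het/tdT, so the bins stood in the order of Myog, although the first and second overlapped in the library labelled Het/tdT. The change between the outer bins was 1.97-fold (log2 0.98, 0.97 to 0.99) and 2.06-fold (log2 1.04, 0.98 to 1.1), on the 2 sides of the 2-fold limit. Taken cell by cell in the library labelled MKO/tdT, the median cell had 89 UMIs of Cdkn1c at Myog 0 and 175 at Myog 5 or more, and the share of cells over 10000 CPM went from 5.02% to 78.3%. Already at Myog 0 the level was above that of chondrocytes in either library.

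Cdkn1b, Cdkn2c and Cdkn2d read lower at high Myog. Cdkn1b went from 38.9 to 20.1 CPM (log2 -0.95, -1.18 to -0.73), Cdkn2c from 5.41 to 2.81 CPM (-0.95, -1.58 to -0.34) and Cdkn2d from 31.2 to 16.9 CPM (-0.88, -1.13 to -0.64) in the library labelled MKO/tdT. All 3 intervals lay below 0 and none of the ratios reached 2-fold in the main setting. Under the alternative settings Cdkn1b ran from -1.31 to -0.70, Cdkn2c from -1.58 to -0.77 and Cdkn2d from -1.79 to -0.69. Whether each passes 2-fold therefore depends on the setting. The library labelled Het/tdT gave -1.0 (-2.04 to -0.01) for Cdkn1b and -0.66 (-1.64 to 0.27) for Cdkn2d, on 41 and 43 UMIs in all. The p21 gene Cdkn1a, which is no member, went the opposite way, from 49.6 to 552 CPM (log2 3.48) in the first library and from 120.3 to 493 CPM (log2 2.04) in the second.

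The D cyclins parted in muscle cells as well. Ccnd2 read 118, 100.1 and 37.3 CPM over the Myog bins of the library labelled MKO/tdT and 87.0, 87.4 and 29.4 CPM in the library labelled Het/tdT, a log2 ratio of -1.66 (-1.81 to -1.51) and -1.56 (-2.36 to -0.83) between the outer bins. Ccnd1 read 45.6, 39.8 and 17.0 CPM in the first library, a log2 ratio of -1.42 (-1.66 to -1.19), and -1.50 (-2.64 to -0.46) in the second, where it came to -0.49 with cells of several types kept. Ccnd3, which MyoD is known to switch on in myoblasts, changed little: 252, 233 and 187 CPM (log2 -0.43, -0.51 to -0.35), and 213, 276 and 219 CPM (0.04, -0.30 to 0.37). Its share of the D cyclin UMIs accordingly grew from 60.7% (59.4% to 62.0%) to 77.5% (76.0% to 79.0%), and from 62.0% to 83.0% in the library labelled Het/tdT, while the 3 cyclins together went from 415 to 242 CPM in the library labelled MKO/tdT.

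**Figure D2:**
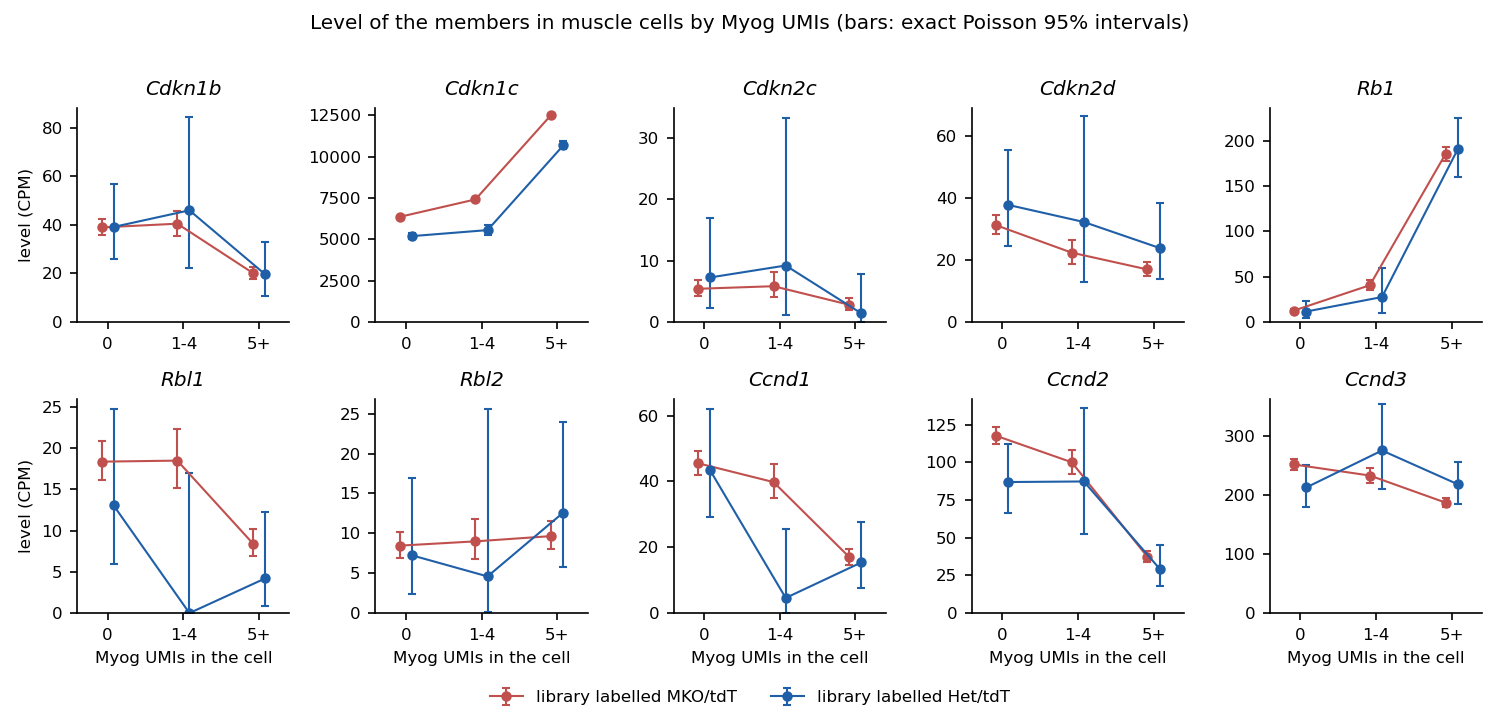
Level of each member in CPM (vertical axis from 0) in muscle cells with 0, 1 to 4 or at least 5 Myog UMIs, for the library labelled MKO/tdT (red) and the library labelled Het/tdT (blue), with bars for exact Poisson 95% intervals. Rb1 and Cdkn1c climb in either library, Ccnd1 and Ccnd2 drop, and the blue bars at 1 to 4 UMIs are wide because that bin held 11 cells.

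In counts, 1 of 10 members was at least 2-fold higher (Rb1) and 3 were at least 2-fold lower (Ccnd1, Ccnd2 and Rbl1) at Myog 5 or more in the library labelled MKO/tdT. Of all 12394 genes with enough UMIs 8.15% and 14.3% were. In the library labelled Het/tdT 2 of the 7 members with enough UMIs were higher (Rb1 and Cdkn1c) and 2 lower (Ccnd1 and Ccnd2), against 7.73% and 13.7% of all genes. The median over the 10 members was -0.91 on the log2 scale in the library labelled MKO/tdT, and over all genes -0.17.

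Myog was also cut more finely in the library labelled MKO/tdT, a division chosen after the data were seen. These steps count Myog UMIs per cell and are not a measure of time. Rb1 stood at 23.8 CPM in cells with a single Myog UMI, 64.9 at 2 to 4, 108 at 5 to 9, 169 at 10 to 19, 227 at 20 to 39 and 260.4 at 40 or more. Cdkn1a went alongside, from 66.2 CPM at a single UMI to 837 at 40 or more. Cdkn1c climbed by smaller steps, from 6882 to 14368 CPM. Ccnd2 was still at 105 CPM in cells with a single Myog UMI and at 53.2 by 5 to 9, Ccnd1 came down to 8.84 CPM at 20 to 39, and Rbl1 was at 14.9 CPM at 5 to 9 and at 4.63 at 20 to 39. The last step held 33 cells, at a median of 20393 UMIs against 14279 in the step before. There Ccnd1 (22.1 CPM) and Cdkn2d (30.9 CPM) read higher than in the step before, as did Mki67 (138 against 94.5 CPM).

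**Figure D3:**
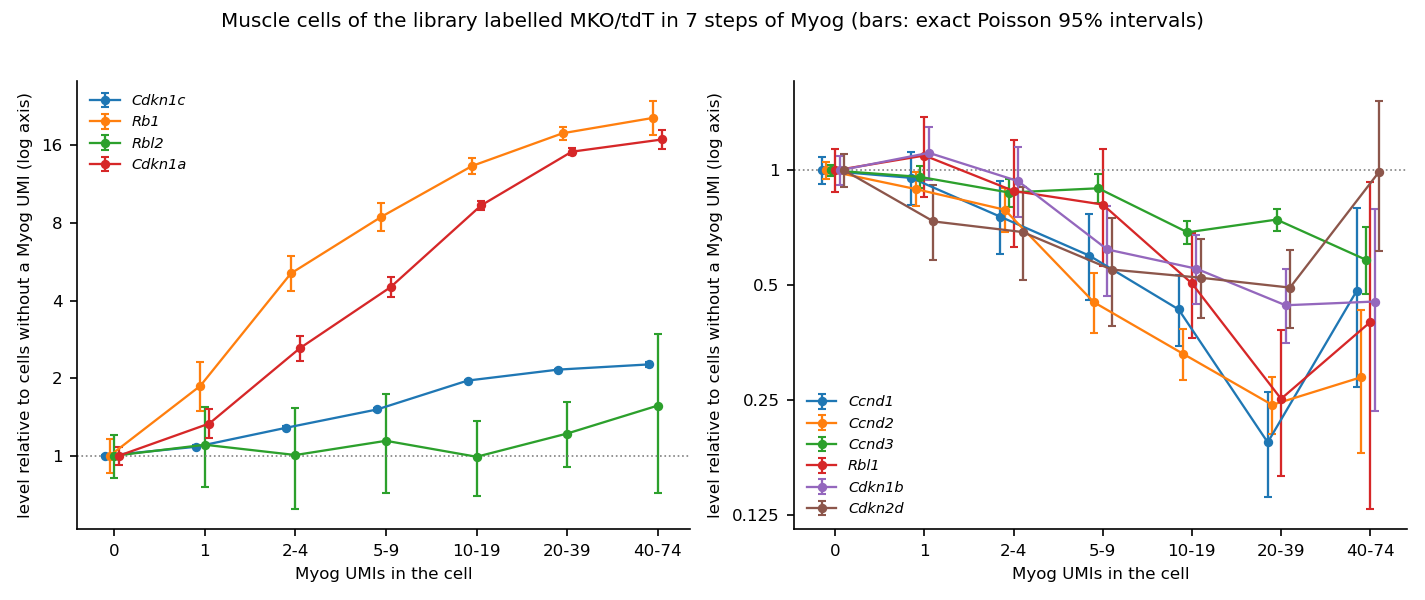
Level relative to muscle cells without a Myog UMI (vertical axis, log scale) over 7 steps of Myog UMIs per cell in the library labelled MKO/tdT, with exact Poisson 95% intervals; the left panel holds Cdkn1c, Rb1, Rbl2 and Cdkn1a and the right panel 6 members that read lower. Rb1 and Cdkn1a leave the line at 1 with the first Myog UMIs, Rbl2 stays near it, and Ccnd2 drops between the steps 2 to 4 and 5 to 9.

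To tell apart the members that go with division, cells were called cycling with at least 3 UMIs summed over Mki67, Top2a, Cdk1, Ccna2, Ccnb1 and Birc5 and non-cycling with 0. Cycling transcripts were common in muscle cells. Thinned to 4000 UMIs, 83.8% (81.1% to 86.1%) of the Myog 0 cells of the library labelled MKO/tdT had a UMI of these genes, as did 53.3% (49.8% to 56.7%) of those with Myog of 5 or more. The Myog 0 share was above that of every other type, which ran from 31.8% in osteoblasts to 64.0% in immune cells, with 16.7% in erythroid cells. The share at Myog 5 or more was below those of immune cells, pericytes (61.8%), epithelium (58.0%) and endothelium (56.4%) and above those of fibroblasts (48.7%), Schwann cells (41.2%), chondrocytes (38.8%) and neurons (32.9%), though several of these intervals overlapped. Many cells with high Myog therefore still held cycling transcripts. Cycling cells were also deeper, at a median of 15378 UMIs against 10763 in muscle cells with Myog 0. In a second split, cells thinned to 4000 UMIs were called cycling with any UMI of these genes and non-cycling with 0. Levels were still read from all UMIs of these cells. The second split keeps the cells between the limits of the first, so depth and limit change together. The part of depth alone in the ratios was not tested.

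In muscle cells with Myog 0 the split moved few members, and it rested on 49 non-cycling cells in the library labelled MKO/tdT. The library labelled Het/tdT had 3 such cells and gave no ratio. Ccnd2 was lower in cycling cells, at 101 against 212 CPM (log2 -1.07, -1.35 to -0.78), and Cdkn2c was higher at 6.09 against 1.91 CPM, a log2 ratio of 1.68 whose interval of -0.85 to 7.0 holds 0, since it rests on 1 UMI in the non-cycling cells. These were 1 member higher and 1 lower of 10, against 9.34% and 5.38% of all genes. Split after thinning, with 732 and 142 cells, Cdkn2c read 2.35 (0.44 to 5.42) and Ccnd2 -1.05 (-1.22 to -0.88). Rbl1 (0.87, 0.17 to 1.65), Cdkn2d (0.61, 0.11 to 1.15) and Cdkn1b (0.51, 0.08 to 0.97) then lay above 0, short of 2-fold. Cdkn1c lay below 0 at -0.11 (-0.14 to -0.09), and the intervals of Rb1, Rbl2, Ccnd1 and Ccnd3 held 0. In the first split Rb1 read 12.8 and 19.1 CPM and Cdkn1c 6311 and 6871 CPM in cycling and non-cycling cells. Split after thinning, Rb1 read 12.9 and 10.7 CPM and Cdkn1c 6286 and 6803 CPM. Under either split these levels were far less apart than those of the Myog bins.

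In muscle cells with Myog of 5 or more the cycling and non-cycling cells of that library numbered 371 and 201, and 3 members were at least 2-fold higher in the cycling ones, against 11.5% of all genes. Rbl1 read 15.4 against 0.406 CPM (log2 5.24, 2.73 to 10.56), the second on a single UMI. Cdkn2c read 4.53 against 0.811 CPM (2.48, 0.49 to 5.60) and Cdkn2d 23.4 against 7.71 CPM (1.61, 0.91 to 2.38). Cdkn1b followed at 0.93 (0.40 to 1.49). Split after thinning, with the looser limit and 440 and 386 cells, the ratios were smaller for Rbl1 (3.31, 2.21 to 4.67) and Cdkn2c (1.77, 0.47 to 3.34). Cdkn2d came to 1.0 (0.54 to 1.47), just short of 2-fold, and Cdkn1b read 1.01. In the first split Rb1 stood at 179 against 198 CPM and Cdkn1c at 11489 against 13869 CPM. Cells with high Myog thus carried high Rb1 and Cdkn1c whether or not they had cycling transcripts. Among non-cycling muscle cells alone, the change of Rb1 with Myog was 3.38 on the log2 scale (2.49 to 4.45) and that of Cdkn1c 1.01 (0.96 to 1.06). There Cdkn1b (-1.31), Cdkn2d (-1.79), Ccnd1 (-1.59) and Ccnd2 (-2.67) were at least 2-fold lower, so 2 of the 8 members with enough UMIs were higher and 4 lower, against 13.6% and 15.4% of all genes.

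Rbl1, Cdkn2c and Cdkn2d also stood higher in cycling chondrocytes and fibroblasts. In chondrocytes Cdkn2c differed by 2.36 and 2.44 on the log2 scale in the libraries labelled MKO/tdT and Het/tdT, Rbl1 by 1.72 and 2.56, and Cdkn2d by 1.02 and 1.0. Fibroblasts gave 2.84 and 3.91 for Cdkn2c, 1.27 and 2.53 for Rbl1, and 1.03 and 1.01 for Cdkn2d. Genes at least 2-fold higher made up 6.53% and 5.10% of all genes in chondrocytes and 5.24% and 5.85% in fibroblasts. At full depth no interval of Rbl2 lay away from 0 in these types or in muscle cells. Split after thinning, Rbl2 read 0.61 (0.03 to 1.2) in muscle cells with Myog of 5 or more and -1.18 (-2.47 to -0.04) in Schwann cells of the library labelled MKO/tdT. After thinning chondrocytes gave Cdkn2c at 2.12 and 1.83, Rbl1 at 1.52 and 1.92 and Cdkn2d at 0.80 and 1.0, the last again short of 2-fold. Fibroblasts gave Cdkn2c at 2.31 and 3.76 and Rbl1 at 1.17 and 2.0, and Cdkn2d read 0.93 and 0.81.

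Ccnd1 stood much higher in cycling cells with neuron markers. It was 6.74-fold higher in cycling cells of the library labelled MKO/tdT (log2 2.75, 2.58 to 2.93) and 6.56-fold in the library labelled Het/tdT (2.71, 2.59 to 2.84), while in chondrocytes and fibroblasts its log2 ratio lay between -0.24 and -0.02 and in endothelium it was 0.46 and 0.41. Cdkn1b was also higher in cycling neuron-marker cells, by 0.97 and 1.04. Genes at least 2-fold higher were 8.56% and 7.33% of all there. Split after thinning, Ccnd1 was lower at 1.87 (1.71 to 2.03) and 2.08 (1.97 to 2.19), still past 2-fold, and Cdkn1b came to 0.57 and 0.73. In the first split Ccnd2 was lower in cycling chondrocytes (-0.44 and -0.60) and fibroblasts (-0.50 and -0.62). It read 0.60 and 0.57 in cells with neuron markers. Split after thinning, Ccnd2 read -0.30 and -0.34 in chondrocytes, -0.33 and -0.56 in fibroblasts and 0.20 and 0.47 in cells with neuron markers.

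**Figure D4:**
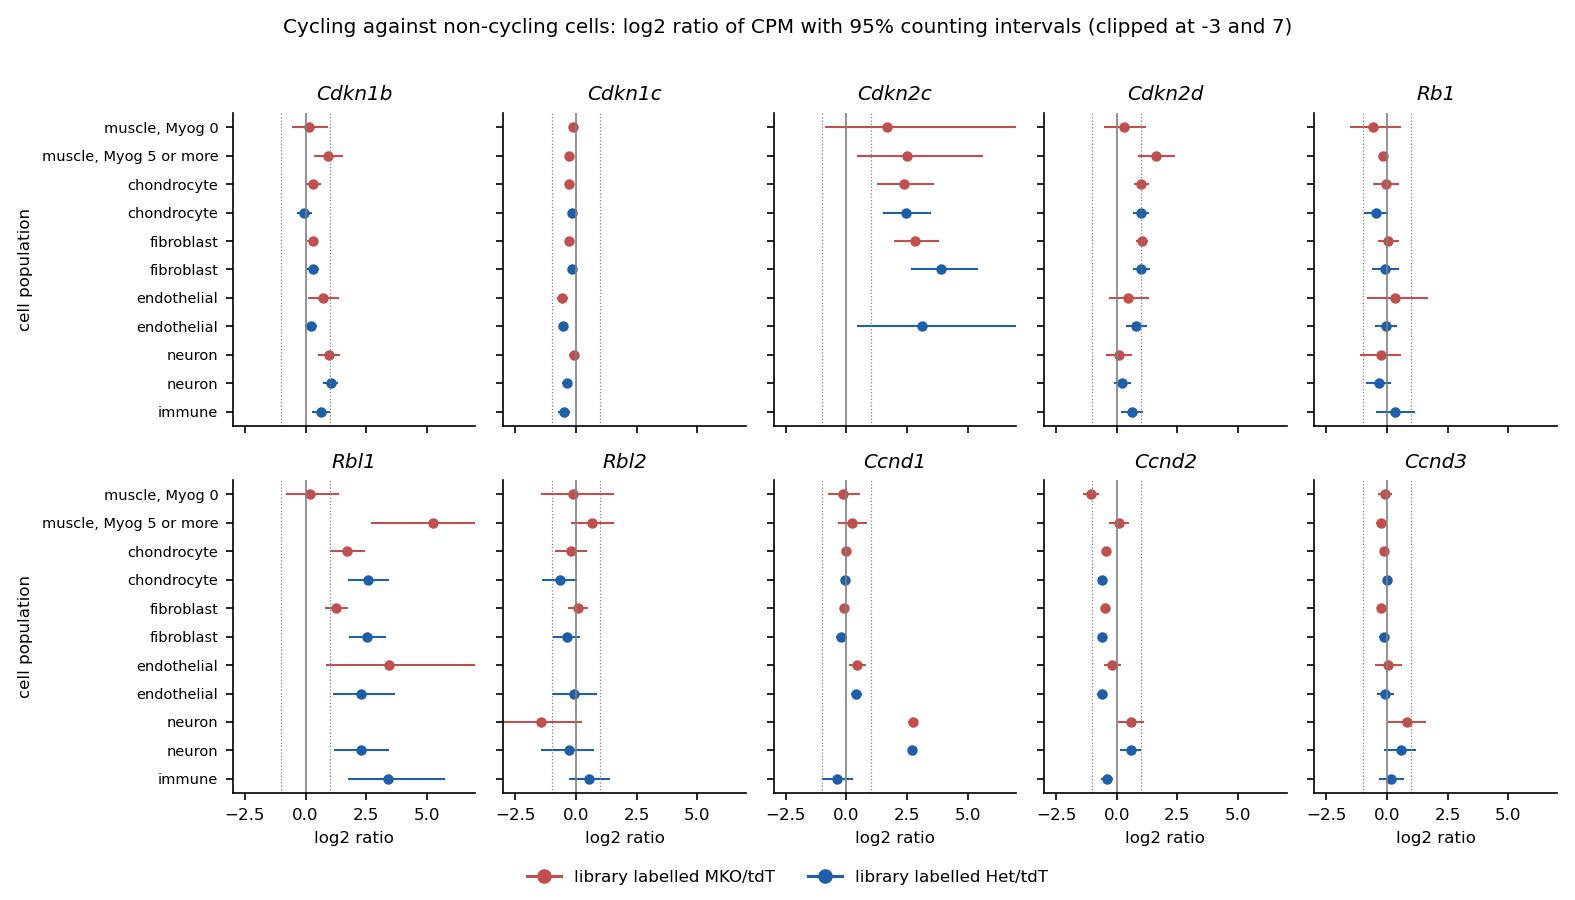
Log2 ratio of CPM between cycling and non-cycling cells (horizontal axis, 0 for no difference and dotted lines at 2-fold) for each member in 11 groups of cells with at least 40 cells on either side, red for the library labelled MKO/tdT and blue for the library labelled Het/tdT, with 95% counting intervals cut at -3 and 7. Rbl1, Cdkn2c and Cdkn2d lie to the right in most groups, and Ccnd1 passes 2-fold in cells with neuron markers.

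The other genes of the pathway, a list of 39, mostly read lower at high Myog. Of the 37 with enough UMIs in the library labelled MKO/tdT, 10 were at least 2-fold lower and 1, Cdkn1a, higher, against 14.3% and 8.15% of all genes, with a median of -0.54. Ccne1, the E cyclin that starts DNA replication, went from 256 to 72.5 CPM (log2 -1.82). E2f7, a repressor of the family, was at -1.68 and the kinase gene Wee1 at -1.53. At the other end, the repressor E2f8 and the activator E2f2 read higher at 0.83 and 0.55, while the library labelled Het/tdT gave 0.18 (-0.58 to 0.95) and -0.05 (-0.87 to 0.78). By role, 2 of 3 cyclins E and A, 3 of 7 E2F targets and 2 of 9 inhibitors and CDKs were at least 2-fold lower. So were 2 of 8 genes of the DREAM and MuvB complexes and 1 of 10 E2F and DP genes. In the library labelled Het/tdT 13 of 30 were lower and Cdkn1a was higher, against 13.7% and 7.73% of all genes. Against other cell types the same list ran the other way: 12 of 39 genes were at least 2-fold higher in muscle cells of the library labelled MKO/tdT and 3 lower, against 5.76% and 34.8% of all genes, led by E2f2 at 3.30, Ccne1 at 2.29 and Skp2, whose product marks p27 for degradation, at 1.89.

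**Figure D5:**
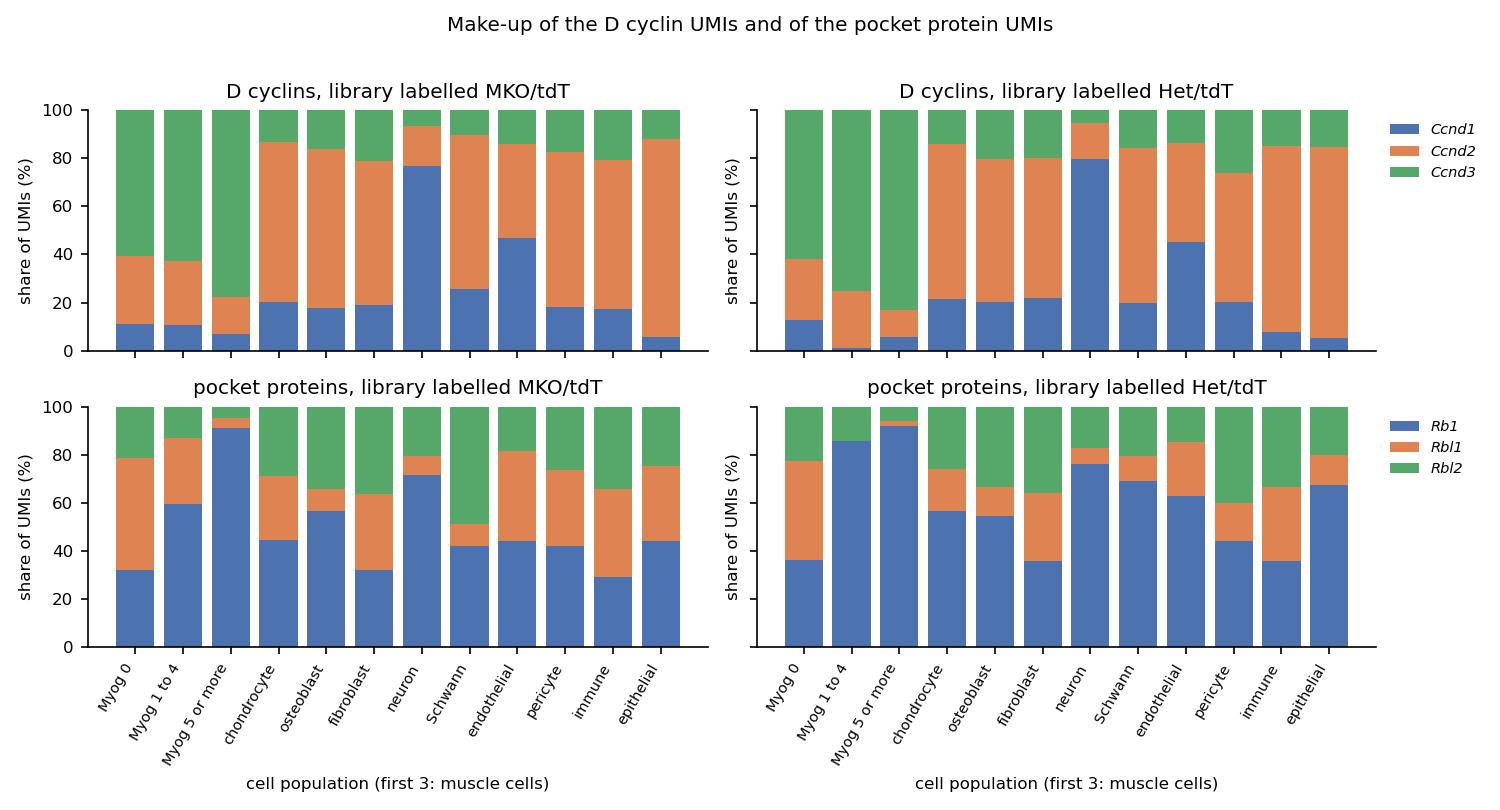
Share of the UMIs of the 3 D cyclins (top) and of the 3 pocket proteins (bottom) that each gene took, in percent, in 12 cell populations of the library labelled MKO/tdT (left) and the library labelled Het/tdT (right). Ccnd3 takes 60.7% to 83.0% in the outer Myog bins of muscle cells and at most 26.0% in any other type plotted, and Rb1 reaches 91.1% and 91.9% at Myog 5 or more.

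Outside muscle Ccnd2 was the main D cyclin of most types, with neurons and endothelium apart. Ccnd2 took 66.3% and 64.4% of the D cyclin UMIs in chondrocytes and 82.7% and 79.5% in epithelium, Ccnd1 took 76.8% and 79.7% in neurons, and endothelium was split between Ccnd1 (46.7% and 45.3%) and Ccnd2 (39.4% and 41.1%). The Ccnd1 UMIs of neurons lay in 24.5% and 27.6% of these cells. Among pocket proteins Rb1 took 71.6% and 75.9% in neurons and 32.1% and 35.6% in fibroblasts, where Rbl2 took 36.2% and 35.9%. Some shares differed between the libraries beyond counting error: Rb1 took 44.4% and 56.5% of the pocket protein UMIs in chondrocytes, 42.1% and 69.2% in Schwann cells and 44.0% and 62.8% in endothelium, and Ccnd2 took 62.3% and 77.4% of the D cyclin UMIs in immune cells.

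Between the libraries Rbl1, Ccnd2 and Cdkn1c read higher in muscle cells of the library labelled MKO/tdT, with intervals away from 0. Over all muscle cells 0 of the 10 members were at least 2-fold apart, a count that says little beside 6.12% of all genes higher and 3.71% lower. With cells thinned, Ccnd2 (1.05) passed 2-fold. Rbl1 then had a UMI in 0 of the 100 muscle cells labelled Het/tdT. Its value of 1.01 is set against a floor of 3 counts and is not a measured ratio. Cdkn1c stood at 8946 and 7654 CPM in the libraries labelled MKO/tdT and Het/tdT (log2 0.22, 0.20 to 0.25), Rb1 at 85.1 and 92.5 CPM (-0.12, -0.36 to 0.13), Ccnd2 at 83.2 and 61.7 CPM (0.43, 0.14 to 0.73) and Rbl1 at 14.5 and 7.40 CPM (0.97, 0.15 to 1.94, on 12 UMIs in the second). Within the Myog bins Rb1 differed by 0.13 (-0.88 to 1.37) at Myog 0 and by -0.04 (-0.29 to 0.22) at 5 or more, and Cdkn1c by 0.29 and 0.23. At 5 or more Rbl1 and Cdkn2c read 2-fold higher in the library labelled MKO/tdT, on 3 UMIs and 1 UMI in the other, with intervals of -0.59 to 3.30 and -1.57 to 6.35 that hold 0, against 8.96% of all genes. Outside the members, Cdkn1a differed by -1.28 (-1.61 to -0.93) at Myog 0 and by 0.16 (0.01 to 0.32) at 5 or more, and Mki67 by 1.23 (0.81 to 1.69) at 5 or more.

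Over 10 cell types, Cdkn1c read higher in the library labelled MKO/tdT in 10, by 0.01 to 0.93. The 0.93 was that of immune cells, at 267 against 139.5 CPM, near the erythroid levels that are not read as expression. Ccnd1 and Ccnd2 read higher there in 9 each, Cdkn2d in 8, Rbl2 in 7, Ccnd3 in 6, and Rbl1 in 8 of the 8 with enough UMIs. Intervals lay above 0 in 9 types for Ccnd2 (below 0 in 1), 8 for Cdkn1c and 5 for Rbl1. They did so in 4 for Ccnd1, 3 for Ccnd3, 2 for Cdkn2d and 0 for Rbl2. The median of all genes was also above 0 in each of the 10 types, from 0.01 in Schwann cells to 0.14 in immune cells. Cdkn1b and Rb1 read lower in the library labelled MKO/tdT in 7 of 10 each, with intervals below 0 in 4 and 3. Cdkn2c read lower there in 4 of the 5 with enough UMIs, but 0 of its intervals lay below 0 and 1 lay above it. Several other measures also differed between the libraries. Mki67 was higher in 10 of 10 types. In muscle cells the 8 stress genes summed to 1406 CPM against 2593, and the median mitochondrial share was 4.29% against 3.95%. The stress sum was lower in the library labelled MKO/tdT in most types, but higher in immune cells (2421 against 1237 CPM) and endothelium (6121 against 5689 CPM). The Cdkn1c read in erythroid cells was itself 176 against 99.6 CPM. The part of these measures in the differences was not tested. With 1 library per genotype, genotype and library cannot be told apart.

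Over the 21 populations of at least 50 cells (the cell types of each library, and the 3 Myog bins of muscle cells in the library labelled MKO/tdT only, since those of the other were smaller), the genes most like each member were listed among 11484 by Pearson's r of log2(CPM + 5), as a description over points that share libraries. Cdkn1c was most like Nrk (0.98), Peg3 (0.94) and Capn6 (0.93). Rbl1 was most like Rrm1 (0.93), a subunit of ribonucleotide reductase, Pcnt (0.89) and the primase gene Prim1 (0.89). Rb1 was most like Rhebl1 (0.86), Sh3bgr (0.82) and Spg21 (0.81), and Ccnd3 most like Stbd1 and Ube2s (both 0.88) and Gspt1 (0.85). For Ccnd1 the nearest were Tshz2 (0.94), Camsap2 (0.92) and Cttnbp2 (0.92), and for Ccnd2 Tmem43 (0.93), Slc12a4 (0.90) and S100a6 (0.89). Cdkn1b was nearest to Cers4 and Retreg2 (both 0.90) and Fis1 (0.89), and Cdkn2d to Zcchc17 (0.90), Trappc2l (0.89) and Calm2 (0.88). Cdkn2c and Rbl2 had no gene above 0.81, at low levels where counting error is large. Among members themselves the highest r was that of Cdkn1c with Ccnd3 (0.82) and the lowest that of Cdkn1b with Ccnd3 (-0.69).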

How the data were processed

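Droplet 3 prime RNA libraries (10x, 1 per genotype) were sequenced and the authors deposited 1 matrix of raw UMI counts per gene and cell barcode. Its header names Cell Ranger 5.0.0, and the submitters' processing notes list Cell Ranger 3.1.0, STAR, Seurat 3.1.1 and build mm10. Per the study's methods the libraries were aggregated with reads sampled down to like depth. Barcode suffixes were given to libraries by the number of barcodes (15268 and 12498), which equals the cells called in each sample's summary.

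Cells within 2 SD of the mean of their library in log10 UMIs and log10 genes and under 10% mitochondrial UMIs were kept. The study's methods give the same number of SD from the mean of all cells and the same mitochondrial limit, with no log scale and no split by library. No doublet caller was run, and cells that met the limits of several types or of none were left out of the types. Muscle needed 3 UMIs over 2 markers and each other type 4 UMIs over 3 markers. UMIs were summed per library and population and divided by all UMIs (CPM). Levels have exact Poisson 95% intervals, shares exact Clopper-Pearson intervals and log2 ratios binomial intervals on how the UMIs divide over both groups, all for counting error only. No p-value was computed. A gene was compared with at least 20 UMIs over both groups and counted at 2-fold or more. Ratios needed 40 cells in either group, a limit set after the numbers of cells were known.

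The members, lists and limits were chosen with earlier results of these data known. Genes named are the members, the 3 highest and 3 lowest pathway genes with at least 100 UMIs, Cdkn1a, Srsf2, markers and the 3 genes most like each member with at least 500 UMIs. The intervals were run on counts simulated with counting error only, which is the error they assume. That run checks the computation and says nothing about variation between cells or libraries. Python 3.11.15, NumPy 2.4.6, SciPy 1.17.1, pandas 2.3.3 and matplotlib 3.10.9 were used.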

Additional observations from a re-analysis of the deposited data

How the results depend on the processing

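Of 73 counts of members past 2-fold under an alternative, 61 stayed within 1.5 times the count reported. Among the alternatives, the share of all genes past 2-fold was computed only for non-cycling cells. The other counts have no such share beside them and cannot be judged against all genes. Of 828 single ratios, 713 stayed within their interval and 36 changed sign, 0 of them past 2-fold as reported. Among these, Ccnd1 between the libraries came to -0.52 with thinned cells, Rbl2 with Myog to -0.55 in non-cycling cells only, and Rb1 with cycling to 0.27 with the split after thinning. With high against no Myog in the library labelled MKO/tdT the count went from 4 to 7 with the mean of single-cell CPM and to 7 with cells thinned to 4000 UMIs. In the library labelled Het/tdT it went from 4 to 2 with at least 100 UMIs over both groups, to 2 with thinned cells and to 2 with cells of several types kept, where Ccnd1 came to -0.49 and Cdkn1c to 0.98. With cycling against non-cycling cells it went from 2 to 1 under each of the mean of single-cell CPM, at least 100 UMIs, thinned cells and cells of several types kept, where Cdkn2c read 0.80. Between the libraries it went from 0 to 1 with the mean of single-cell CPM and to 1 with limits on the linear scale. With thinned cells it went to 2, with Ccnd2 at 1.05 and Rbl1 at 1.01 against a floor of 3 counts. The cause was not tested. Cdkn1c passed 2-fold in the library labelled MKO/tdT at 1.04 without mitochondrial, ribosomal protein and haemoglobin UMIs and at 1.15 less the median of all genes, and Rbl1 came to -0.95 and, with a mitochondrial limit of 5%, to -0.78. The settings with non-cycling cells only and without shared barcodes were added after seeing the data. Groups under 40 cells gave no value for the library labelled Het/tdT at a mitochondrial limit of 5% or stricter muscle limits. No paired analysis was possible because each genotype has 1 library and no result comes from a test, and for the same reason no replicate could be left out.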
